A study of Mus musculus with 2 samples.

Results

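Contacts of 8 genes were followed in mouse embryonic stem cells (ESCs): Thap11, which encodes Ronin, Hcfc1, the gene of its cofactor HCF-1, Zfp143, whose product binds many of the same promoters, and the THAP family genes Thap1, Thap2, Thap3, Thap4 and Thap7. A contact counted for a gene when either of its 2 joined regions, here called anchors, lay within 1 kb of the GENCODE vM1 gene, and pairs on the same chromosome and on different chromosomes were both taken. The 8 genes were among 12817 protein-coding genes with such contacts, and they took part in 171 of 44328 pairs of anchors in Ronin knockout cells and in 475 of 128267 pairs in control cells.

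The study asked by RNA polymerase II ChIA-PET which contacts between promoters remain once Ronin is deleted. In ChIA-PET, chromatin pulled down with an antibody is ligated so that the ends of 1 sequenced molecule, a paired-end tag (PET), can come from 2 distant places. By the study's knockout protocol both groups were CreERT2; Ronin flox/flox ESCs, derived from blastocysts and grown on gelatin in medium with LIF. The study also lists Ronin flox/flox ESCs as a control line, and its ChIA-PET methods do not name the line of the control cells. The antibody was clone 8WG16 against RNA polymerase II in both groups. Under that protocol Ronin knockout cells had tamoxifen for 4 days and control cells had ethanol for 4 days. Tamoxifen itself was then given to the knockout cells alone, so its effect and that of Ronin loss cannot be told apart. The authors merged 2 experiments per condition into 1 set of pairs, so no value has a replicate. Each interval below is an exact 95% interval that covers counting error only, and each test compares these libraries and not the conditions.

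THAP proteins share an amino-terminal zinc finger, the THAP domain, that binds DNA. Ronin binds at promoters and recruits HCF-1, the product of Hcfc1, a coregulator that brings in enzymes acting on histones, and it is needed for ESC self-renewal. The product of Zfp143 is a zinc finger protein, and its human counterpart has been placed at the base of promoter loops.

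The deposited pairs held 65276 PETs in Ronin knockout cells and 156097 PETs in control cells, so the knockout total was 41.8% of the control total (41.4 to 42.2%). Nearly all pairs rested on 1 PET, 97.9% of them in the knockout and 98.3% in control cells. Pairs between chromosomes held 81.4% of knockout PETs and 84.2% of control PETs. All 8 ESC marker genes had PETs (235 in the knockout and 735 in control cells, summed over genes), while the 5 fibroblast markers Col1a1, Col1a2, Col3a1, Thy1 and Dcn were at 0 in both libraries. Of the ESC markers the exact binomial test described below called Zfp42 alone, as lower, with 37 PETs in the knockout and 194 PETs in control cells (19.1% of control, 13.0 to 27.2%, adjusted p = 2.3e-04). Esrrb had 32 PETs in the knockout and 130 PETs in control cells (adjusted p = 0.104 by the same exact test). The part of such a difference in the members' counts was not tested. The 5 primitive endoderm markers had 6 PETs in the knockout and 9 PETs in control cells.

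Thap11, the targeted gene, is a gene with 1 exon on the plus strand of chromosome 8 (chr8:108379003-108380850, mm9, ENSMUSG00000036442.7). In control cells it lay whole within 1 anchor of 35.6 kb (chr8:108367245-108402893), together with Cenpt, a gene for a kinetochore protein, the far end of Tsnaxip1, and Nutf2, a gene for a nuclear transport factor. In Ronin knockout cells the same stretch was listed as 2 anchors, of 11.9 kb (chr8:108367164-108379090) and 22.3 kb (chr8:108380595-108402860). The outer edges differed from those of the control anchor by 81 and 33 bases, and the new inner edges both fell inside Thap11. Between them was a gap of 1504 bases (chr8:108379091-108380594) that began 88 bases into the gene and held 81.4% of it, including 915 of the 915 bases of its coding span (chr8:108379261-108380175). No knockout anchor overlapped the gap.

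**Figure D1:**
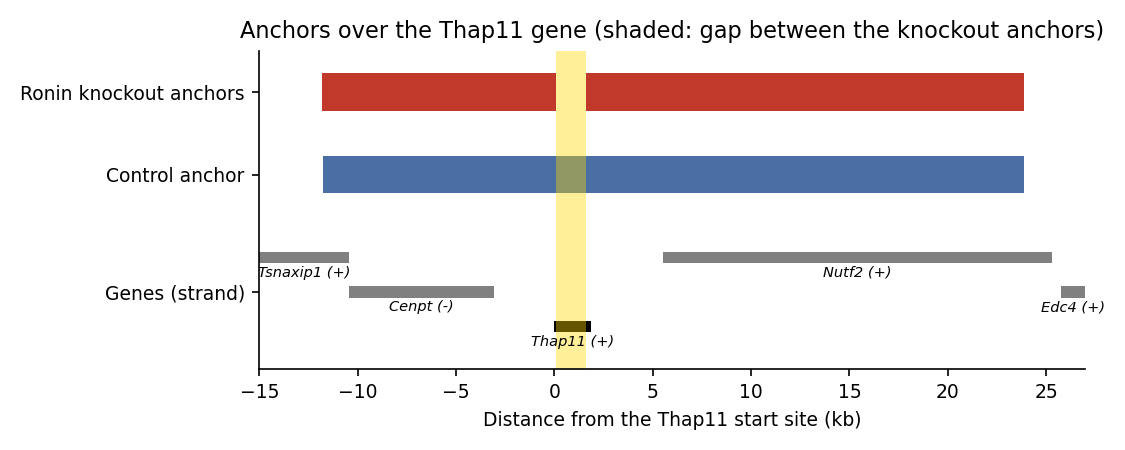
Anchors over Thap11 in Ronin knockout cells (red) and control cells (blue), with genes as grey bars and Thap11 in black; the horizontal axis is the distance from the Thap11 start site in kb. The control anchor of 35.6 kb covered the gene, and the 2 knockout anchors left a gap of 1504 bases (shaded) over its coding span.

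Splits of this kind were looked for in the rest of the genome. Of 16043 control anchors that overlapped a knockout anchor, 1490 (9.29%) overlapped 2 or more, and the gaps between those numbered 1863 with a median of 166 bases. A gap at least as long as that in Thap11 was found in 288 cases (15.5%). Of 2645 protein-coding genes that lay whole inside such a control anchor, Thap11 had the largest share of its length in a gap. The next were Gm10155 with 78.6% and Eif1ax with 58.4%, and 5 genes, Thap11 included, had at least 50% of their length in one. This search was made after the Thap11 gap had been seen. The files list only anchors with linking PETs, and the ends of the floxed segment are not given in the sources used here, so the gap was not compared with the deleted sequence.

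The start of Thap11 stayed inside the upstream knockout anchor. Its promoter is shown because the knockout anchor ends just past it, with the stretch most like the Ronin motif in capitals (RefSeq, GRCm38.p6, chr8:105854853-105855152, plus strand, from 250 bases before to 50 bases after the start). The same 300 bases were found once in mm9, at chr8:108378753-108379052.
Thap11 promoter: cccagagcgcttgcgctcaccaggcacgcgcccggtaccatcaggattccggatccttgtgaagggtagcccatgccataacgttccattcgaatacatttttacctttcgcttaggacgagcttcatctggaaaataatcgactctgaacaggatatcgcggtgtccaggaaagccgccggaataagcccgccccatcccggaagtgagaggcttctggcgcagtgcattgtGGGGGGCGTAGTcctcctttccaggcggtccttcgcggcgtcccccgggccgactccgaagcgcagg

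Thap11 had 46 PETs in Ronin knockout cells and 109 PETs in control cells. The knockout count was 42.2% of the control count (29.2 to 60.1%), where that of all PETs was 41.8%. That yardstick depends on the unit, since with each pair counted once the knockout total was 34.6% of the control total. Thap11 then had 45 pairs in the knockout and 107 in control cells, 122% of control after scaling. The 46 knockout PETs were made up of 24 at the upstream anchor and 22 at the downstream anchor. When only anchors within 1 kb of an annotated start site were counted, Thap11 had 24 PETs in the knockout and 109 PETs in control cells, which was 52.7% of control after scaling to equal library totals, with an adjusted p of 0.0687 by the exact binomial test. Cenpt, which shares the upstream anchor, had the same counts of 24 in the knockout and 109 in control cells. Thus the level given for Thap11 rested on whether the downstream anchor, which also holds Nutf2, was assigned to it.

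Hcfc1 (chrX:71188131-71211696, minus strand, ENSMUSG00000031386.8) was the only member alone in its anchor, which was 33.0 kb wide in the knockout and 32.8 kb in control cells. It had 25 PETs in Ronin knockout cells and 65 PETs in control cells, so that the knockout count was 38.5% of control (23.2 to 61.9%). All 25 knockout PETs led to other chromosomes, as did 63 of the 65 control PETs.

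Zfp143 (chr7:117205216-117238906, plus strand, ENSMUSG00000061079.6) had the most PETs of the 8 genes, 51 in Ronin knockout cells and 166 in control cells. The knockout count was 30.7% of control (22.0 to 42.3%). Its start lay in an anchor of 59.8 kb in the knockout and 55.5 kb in control cells that also held Ipo7, a gene for a nuclear import receptor, and AA474408. These neighbours had 48 PETs each in the knockout and 159 PETs each in control cells, so that most PETs of Zfp143 could not be told apart from theirs. In control cells a further 8 anchors of 1.03 to 6.32 kb were listed along or just past the gene, and 3 pairs joined the main anchor to 3 of these. In the knockout 1 further anchor, of 4.47 kb, was listed just past its end, and no pair joined Zfp143 to itself.

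Thap1 (chr8:27268684-27273412, plus strand, ENSMUSG00000037214.5) encodes a THAP transcription factor whose human counterpart is mutated in an inherited dystonia. It shared its anchor with Rnf170, a ubiquitin ligase gene with 30 PETs in the knockout and 114 PETs in control cells. Thap1 had 17 PETs in Ronin knockout cells and 71 PETs in control cells, 23.9% of control (13.2 to 41.1%). This was the lowest ratio among the members with at least 10 PETs.

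Thap7 and Thap2 lay near the library ratio. Thap7 (chr16:17528075-17531229, minus strand, ENSMUSG00000022760.9), whose human counterpart represses transcription, had 14 PETs in Ronin knockout cells and 27 PETs in control cells, 51.9% of control (25.1 to 102%). It shared its anchor with Lztr1, an adaptor gene of a ubiquitin ligase that acts on RAS proteins. Thap2 (chr10:114807022-114821491, minus strand, ENSMUSG00000020137.4) had 15 PETs in the knockout and 35 PETs in control cells, 42.9% of control (21.7 to 80.5%). Its start lay head to head with that of Zfc3h1, a nuclear RNA decay gene, in the same anchor, and Zfc3h1 had 19 PETs in the knockout and 54 PETs in control cells.

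Thap3 and Thap4 had few PETs. Thap3 (chr4:151356748-151363106, minus strand, ENSMUSG00000039759.4), whose human counterpart binds HCF-1, was the only member with more PETs in Ronin knockout cells, 8, than in control cells, 6. Its interval, 40.6 to 466% of control, reached just below the 41.8% of all PETs. The exact binomial test given below put Thap3 under 0.05 before adjustment (p = 0.0359). The interval and the test, which are built differently, thus part at this border. The Thap3 anchor also held parts of Dnajc11 and Phf13, and was 26.0 kb wide in the knockout and 15.5 kb wide in control cells. The Thap3 counts of the libraries thus cover unlike stretches. Per 10 kb of anchor, Thap3 had 3.08 PETs in the knockout and 3.88 PETs in control cells. Phf13 had 8 PETs in the knockout and 20 PETs in control cells, and Dnajc11 had 15 in the knockout and 22 in control cells. Thap4 (chr1:95601968-95651415, minus strand, ENSMUSG00000026279.7), which encodes a THAP protein with a heme-binding domain, had 1 PET in the knockout and 5 PETs in control cells, all to other chromosomes. Atg4b, an autophagy protease gene next to Thap4, shared these anchors and had others of its own, with 28 PETs in the knockout and 90 PETs in control cells.

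**Figure D2:**
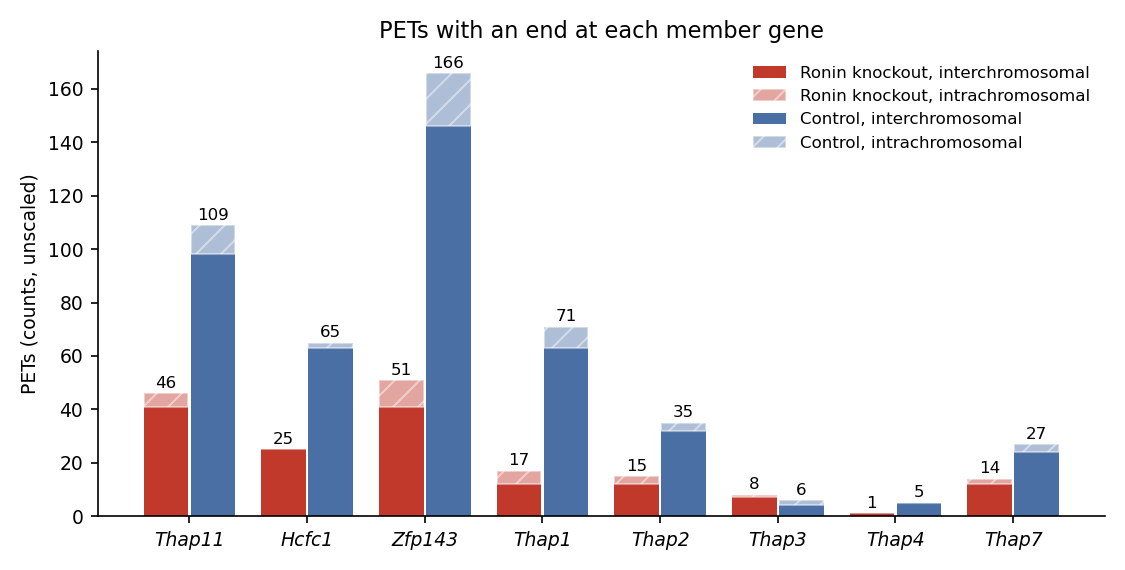
PETs (unscaled counts, vertical axis from 0) with an end at each of the 8 genes, Ronin knockout in red left of control in blue; solid bars are pairs between chromosomes and hatched bars pairs on the same chromosome. Counts were lower in the knockout for 7 genes and higher for Thap3 (8 against 6), and most PETs of each gene led to other chromosomes.

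PETs were then set against the length of the members' anchors. In Ronin knockout cells the density at a member's anchors ran from 13.5 PETs per 10 kb at Thap11 (9.85 to 17.9) through 8.97 at Thap7, 7.94 at Zfp143, 7.57 at Hcfc1, 6.52 at Thap1 and 4.81 at Thap2 to 3.10 at Thap4 and 3.08 at Thap3. No neighbours in this order differed beyond counting error. In control cells it ran from 30.6 PETs per 10 kb at Thap11 (25.1 to 36.9) through 26.9 at Thap1, 22.7 at Thap7, 21.8 at Zfp143, 19.8 at Hcfc1, 12.6 at Thap2 and 11.5 at Thap4 to 3.88 at Thap3. There the neighbours Hcfc1 and Thap2 alone had an interval of their ratio above 1 (1.03 to 2.44). With 2 libraries, likeness of pattern between genes could not be measured.

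Over all 8 genes, with each PET counted once, Ronin knockout cells had 177 PETs and control cells had 484 PETs. The knockout count was 36.6% of control (30.6 to 43.5%), an interval that held the 41.8% of all PETs. The median over the members was 40.3% of control, against 35.3% over all genes with PETs and 36.3% over the 8973 genes with at least 10 PETs. Before scaling, 7 of 8 members had fewer PETs in the knockout, where 88.9% of all 12817 genes did. After scaling to equal totals 4 of 8 members had fewer (Hcfc1, Zfp143, Thap1 and Thap4), where 60.7% of genes did. The members thus lay on both sides of the library ratio.

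Across genes, the two-sided exact binomial test of a gene's knockout share against the knockout share of all PETs, with Benjamini-Hochberg adjustment, called 287 genes lower (2.24%) and 256 genes higher (2%) in Ronin knockout cells. It called 0 of the 8 members in either direction. Before adjustment, Thap1 passed as lower (exact p = 0.0356) and Thap3 as higher (exact p = 0.0359), each with an adjusted p of 0.316. Zfp143 had an exact p of 0.0531 and an adjusted p of 0.398. The other 5 members had adjusted p values of 0.949 or 1 in this exact test, and over all genes 1043 passed as lower and 608 as higher before adjustment.

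These calls turned on the scaling. Scaled by PETs on the same chromosome, which moved the median gene by -0.24 on the log2 scale, the calls were 841 lower and 216 higher, and Zfp143 was called lower (adjusted p = 0.040, exact binomial). Scaled by library totals of PETs over 5 kb (-0.93), 4120 genes were lower and 131 higher, and Thap11, Hcfc1, Zfp143 and Thap1 were called lower. With no scaling (-1.26), 5465 were lower and 99 higher, and Thap2 was called lower too. Under the last 2 of these scalings Thap3 was the sole member above control. Counting each pair once, scaled by totals of pairs, moved the calls the other way. There 88 genes were called lower and 253 higher, and 0 members were called. Scaled counts were then lower in the knockout for 3 of 8 members and for 49.1% of genes.

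**Figure D3:**
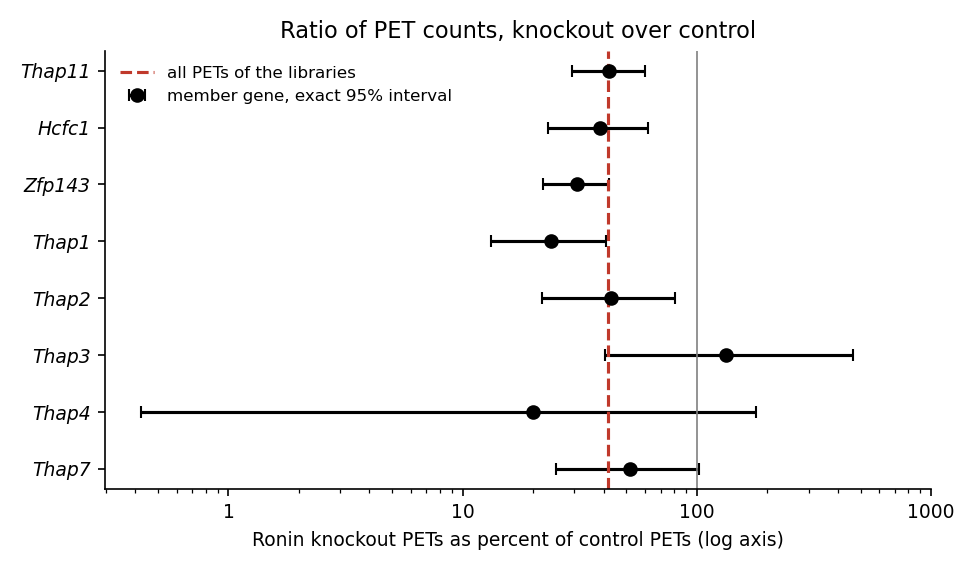
Ronin knockout PETs as percent of control PETs (log axis) for each gene, with exact 95% intervals for counting error; the dashed line is the ratio of all PETs, 41.8%, and the grey line equal counts. The interval of Thap1 lay just below the dashed line, and the intervals of the other 7 genes held it. With each pair counted once, the ratio of the libraries was 34.6% (not drawn).

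Contacts were mostly single PETs and mostly not found in both libraries. The study took 3 PETs as the mark of a high-confidence interaction. It also left pairs between chromosomes out of its later analyses of Ronin loops, as noisier. The most PETs of any member pair were 3 in the knockout and 2 in control cells, so no control pair of a member reached that mark. Of the 475 control pairs of the members, 7 had both anchors overlapped by those of a knockout pair (1.47%, 0.594 to 3.01%), where 1.36% of all control pairs did. On the same chromosome 4 of 47 member pairs were found again (8.51%, 2.37 to 20.4%), where 4.82% of all such pairs were. All 4 spanned less than 1 Mb, and 0 of the 26 control pairs over longer distances were found again, which allows a share of up to 13.2% (exact upper limit).

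Thap11 held 3 of these 7 pairs. It was joined to a region that holds Ctcf, the gene of the insulator and looping protein, by 1 PET in each library, with 142 kb between the anchors in the knockout and 131 kb in control cells. It was joined to the neighbouring region with Edc4, an mRNA decapping gene, and Pskh1 by 2 PETs in Ronin knockout cells, 1 at each of the 2 anchors, and by 1 PET in control cells. The third partner was on another chromosome. The region over Pgk1, a gene for a glycolytic kinase on the X chromosome (chrX:103380259-103387739 in the knockout, chrX:103380287-103385610 in control cells), was joined to Thap11 by 3 PETs in Ronin knockout cells, 2 at the upstream and 1 at the downstream anchor, and by 2 PETs in control cells. Thap11 accounted for 3 of the 10 PETs at Pgk1 in the knockout and 2 of the 13 PETs in control cells, and no other partner of Pgk1 had more than 1 PET in either library. Whether the floxed allele or the Cre transgene carries Pgk1 sequence is not given in the sources used here, and a part of such sequence in these PETs was not tested. Among all control pairs between chromosomes, 1517 (1.31%) had 2 or more PETs, and 167 of these were found in the knockout with 2 or more PETs as well. Thap11 was also joined to Mga, a gene for a partner of MAX, by 2 PETs in control cells, and in the knockout by 1 PET to the adjoining region with Mapkbp1.

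Zfp143 was joined to Tmem41b, a gene for a lipid scramblase of the endoplasmic reticulum, by 3 PETs in Ronin knockout cells (23.7 kb between the anchors) and by 2 PETs in control cells (25.6 kb). With Wee1, the gene of a kinase that holds back mitosis, it shared no PET in the knockout and 2 PETs in control cells (41.6 kb). With a region 64502 kb away that holds Ppfia3, Lin7b and Snrnp70 it shared 2 PETs in the knockout and none in control cells. Counts of 0 and 2 do not differ beyond counting error. Pairs with 2 PETs in control cells alone also joined Zfp143 to Ube2d2 and Cxxc5 on chromosome 18 and to Itfg2 and Fkbp4 on chromosome 6.

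Thap1 was joined to the region of Ash2l, a gene for a subunit of histone H3 lysine 4 methyltransferases that HCF-1 binds. It had 3 PETs in Ronin knockout cells (to an anchor 307 kb away that also holds Bag4, Lsm1 and Star) and 1 PET in control cells (to the next anchor, 292 kb away). Zfp143, on another chromosome, had 1 PET with the Ash2l region in each library. Of the other members, Thap2 was joined to Rab21, a gene for a small GTPase of endosomes, by 1 PET in each library (56.5 kb apart in the knockout and 59.9 kb in control cells). Hcfc1 was joined to an anchor of chromosome 15 with no protein-coding gene (chr15:75701348-75704369 in control cells) by 1 PET in the knockout and 2 PETs in control cells. The control library further had 2 PETs from Thap1 to the Frmd8 region and 2 from Thap2 to the Gm10800 region, whose anchors had 702 and 9516 as the count given for them in the control file. By the study's hypergeometric test the adjusted p was 0.0154 for the Frmd8 pair and 0.202 for the Gm10800 pair.

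The nearest partners of the remaining members were found in 1 library each. For Thap7 these were Senp5 at 14.5 Mb in Ronin knockout cells and Crkl at 41.9 kb in control cells. For Thap3 they were Slc2a1 at 32.5 Mb in the knockout and Phf13 at 1.99 kb in control cells. The wider Thap3 anchor of the knockout (chr4:151352075-151378075) covered the control partner at Phf13 (chr4:151369450-151375357), so that pair could not be listed there. Hcfc1 had no pair on its own chromosome in the knockout. Thap4 had none in either library.

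**Figure D4:**
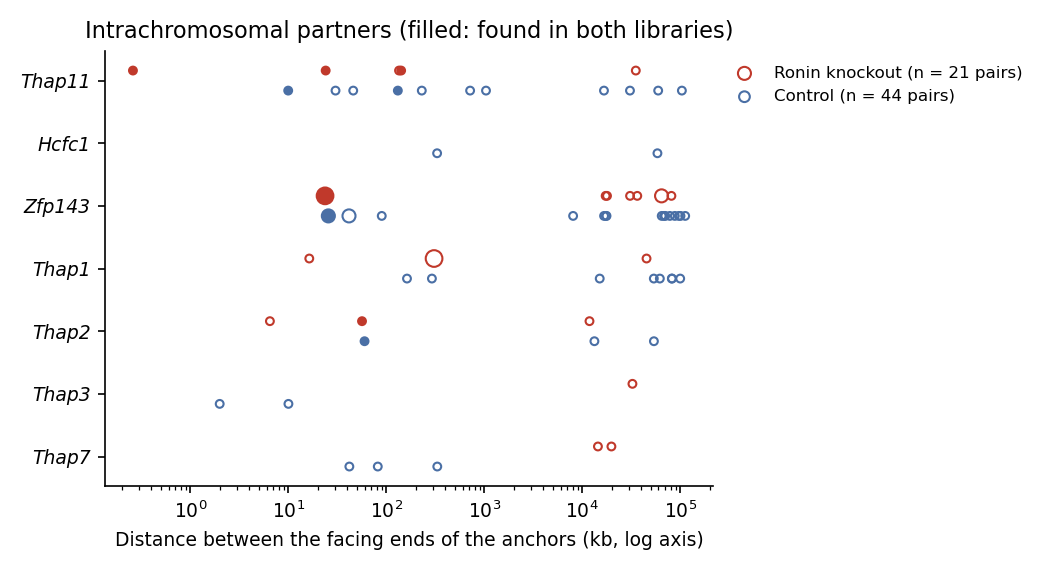
Distance between the facing ends of the 2 anchors (kb, log axis) for the members' pairs on the same chromosome, 21 in Ronin knockout cells (red, upper row of each gene) and 44 in control cells (blue, lower row), leaving out 3 pairs within Zfp143. Each circle is 1 pair, larger circles have 2 or 3 PETs, and filled circles, all under 1 Mb, were found in both libraries.

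A protein-coding gene lay at the partner in 88.3% of member pairs in Ronin knockout cells and in 90.5% in control cells, against 90.7% of all anchor ends in the knockout and 90.0% in control cells. Pairs between chromosomes held 85.3% of member PETs in the knockout (79.2 to 90.2%) and 89.9% in control cells (86.8 to 92.4%). The median distance on the same chromosome was 14.5 Mb over 21 pairs in the knockout and 13.3 Mb over 47 pairs in control cells, where all such pairs had medians of 4.55 Mb in the knockout and 10.3 Mb in control cells. No pair joined 2 different members. Regions joined to 2 or more members numbered 3 of 166 partner regions in the knockout and 13 of 457 in control cells. The same share for other sets of genes was not computed, and members had 177 PETs in the knockout and 484 PETs in control cells. In control cells the regions named after Frmd8 and Hnrnpf, whose anchors had given counts of 702 and 134, were each joined to Hcfc1, Thap1 and Thap11. Regions are named by protein-coding genes alone, so noncoding genes in them are not named.

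The members' anchors were then searched for the core of the Ronin motif, GGGANNTGTAGT, on both strands. At the 2 open positions the motif given by the study allows A or G and then A or T, so this core is looser than that motif. A search with those letters, here called strict, was added after seeing the data. Both forms leave out the leading CT and the closing C or T of the study's motif, so a strict match need not hold the whole motif. A designed oligonucleotide of the study, C1F, shows this core in capitals, and C2F is the one that lacks it.
C1F: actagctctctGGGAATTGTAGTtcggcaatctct
C2F: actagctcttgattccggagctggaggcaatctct

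Among 32851 RefSeq promoters of 300 bases, 595 (1.81%) held the core and 406 (1.24%) the strict core. RefSeq promoters were found for 7 of the 8 members, 9 promoters in all, and only an internal promoter of Thap4 held it, in its strict form. The closest stretch in the Thap11 promoter, in capitals above, differed at 2 of the 10 fixed letters, and 22.8% of all promoters had a stretch at least as close. The Thap4 promoter is shown as the sole match (RefSeq, GRCm38.p6, chr1:93731877-93732176, minus strand, core in capitals on the opposite strand). The match also has the leading CT and a closing C, and so holds the whole motif given by the study. The promoter lies 22912 bases inside the gene, at chr1:95628454-95628753 in mm9, and outside the Thap4 anchors of both libraries.
Thap4 internal promoter: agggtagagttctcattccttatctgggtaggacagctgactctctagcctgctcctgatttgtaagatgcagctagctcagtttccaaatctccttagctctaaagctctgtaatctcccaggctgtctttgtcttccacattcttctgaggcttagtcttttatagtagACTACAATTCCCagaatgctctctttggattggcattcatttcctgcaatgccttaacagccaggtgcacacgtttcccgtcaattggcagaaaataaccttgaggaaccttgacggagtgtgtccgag

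Within the members' anchors the core was found at 6 sites, listed below because 5 of them lay within 216 bases of the start of a neighbouring gene that shares the anchor and not at a member's own start. Each is given as 30 bases of mm9, 5′ to 3′ on the strand that reads GGGA, with the core in capitals. In the Thap11 anchors these were 82 bases upstream of the Cenpt start (chr8:108375976-108376005, plus strand), 91 bases upstream of the Nutf2 start (chr8:108384429-108384458, plus strand) and 2565 bases upstream of it (chr8:108381955-108381984, plus strand). In the Zfp143 anchor it was 216 bases upstream of the Ipo7 start (chr7:117161709-117161738, minus strand), in the Thap2 anchor 140 bases upstream of Zfc3h1 and 384 bases from the Thap2 start (chr10:114821861-114821890, minus strand), and in the wider Thap3 anchor of the knockout 12 bases past the Phf13 start (chr4:151370341-151370370, plus strand).
Cenpt site: tggccccacGGGAACTGTAGTccaacagct
Nutf2 near site: tggcattctGGGAAATGTAGTtctagctaa
Nutf2 far site: tcacctcttGGGACGTGTAGTgtctggaac
Ipo7 site: gagcaccctGGGAAATGTAGTccccaaacg
Zfc3h1 site: gtgctggctGGGATTTGTAGTctcctcttg
Phf13 site: aggttcgtcGGGAAATGTAGTccgggttga

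Of these 6 sites 3 held the strict core, namely the Nutf2 near site, the Ipo7 site and the Phf13 site, and the other 3 did not. The Nutf2 near site and the Ipo7 site also hold the leading CT and the closing C or T, and so the whole motif given by the study. The Phf13 site lacks the leading CT. In the knockout the Cenpt site fell in the upstream anchor of Thap11 and both Nutf2 sites in the downstream anchor. By length the members' anchors held 2.57 core matches per 100 kb in Ronin knockout cells and 2.17 in control cells, where all anchors held 0.637 in the knockout and 0.658 in control cells. The members' densities rest on 6 matches in the knockout and 5 in control cells. The control matches are among the same 6 sites, and 3 of these lie in the Thap11 anchors. Anchors held the starts of all 8 members in each library, whereas the set of all anchors was not limited to promoters. The median anchor was 24.1 kb wide for members and 4.74 kb for all anchors in the knockout, and 5.27 kb and 3.28 kb in control cells. The partners' anchors held 0.352 per 100 kb in the knockout and 0.443 in control cells. With the strict core the members' anchors held 1.28 matches per 100 kb in the knockout (3 matches) and 0.868 in control cells (2 matches), all anchors held 0.350 in the knockout and 0.371 in control cells, and the partners' anchors held 0.176 in the knockout and 0.236 in control cells. A match is a run of letters and was not tested as a binding site. The study names the locus of the Ronin gene as an example of a promoter cluster seen in its own Ronin ChIA-PET. Those Ronin data were not used here, so the core matches were not compared with them.

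Of the other THAP genes, Thap8 had 15 PETs in Ronin knockout cells and 34 PETs in control cells. Thap6 had 2 PETs in the knockout and 15 in control cells, and Prkrir, also called Thap12, had 4 PETs in the knockout and 5 in control cells. The test called none of these 3 genes.

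Among 28 genes for HCF-1 partners and looping proteins all had fewer PETs in the knockout before scaling, where 88.9% of all genes and 94.8% of genes with at least 10 PETs did, and 17 of the 28 had fewer after scaling, where 60.7% of all genes did. Their median was 36.0% of control, next to 35.3% over all genes. The test called 1 of them lower and 0 higher. The call was made at E2f1, the gene of a cell cycle transcription factor that binds HCF-1, with 23 PETs in the knockout and 135 PETs in control cells (17.0% of control, 10.4 to 26.6%, adjusted p = 8.6e-04 by the exact binomial test). Its anchor, 41.2 kb wide in the knockout and 121 kb in control cells, was shared with Cbfa2t2, Necab3, 1700003F12Rik and 1700007I08Rik, of which the last 3 had the same counts of 23 in the knockout and 135 in control cells, so the call cannot be assigned to E2f1 alone.

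None of the other genes of this list was called, and 27 of the 28 had at least 10 PETs over both libraries. Of the transcription factor genes, Sp1 had 44 PETs in Ronin knockout cells and 131 PETs in control cells, Gabpa had 35 in the knockout and 55 in control cells, E2f4 had 34 in the knockout and 48 in control cells, Creb3 had 11 in the knockout and 22 in control cells, and Yy1 had 15 in the knockout and 46 in control cells. Pou2f1, the octamer factor gene that first linked HCF-1 to transcription, had 17 PETs in the knockout and 85 PETs in control cells (adjusted p = 0.089, exact binomial). Among genes of subunits of H3 lysine 4 methyltransferases, Ash2l had 50 PETs in the knockout and 174 in control cells, Wdr5 had 21 in the knockout and 34 in control cells, Rbbp5 had 13 in the knockout and 43 in control cells, Setd1a had 31 in the knockout and 72 in control cells, Mll1 had 5 in the knockout and 13 in control cells, and Wbp7 had 19 in the knockout and 25 in control cells. Mll5, a related gene, had 56 PETs in the knockout and 173 in control cells, and the coactivator gene Ncoa6 had 0 in the knockout and 12 in control cells. Of the histone deacetylase complex genes, Sin3a had 23 PETs in the knockout and 34 in control cells, Hdac1 had 24 in the knockout and 71 in control cells, and Hdac2 had 3 in the knockout and 8 in control cells. Ogt, the gene of the enzyme that glycosylates and cleaves HCF-1, had 22 PETs in the knockout and 50 in control cells, Hcfc1r1, an HCF-1 export factor gene, had 27 in the knockout and 31 in control cells, the deubiquitinase gene Bap1 had 10 in the knockout and 21 in control cells, and the histone reader gene Yeats2 had 16 in the knockout and 52 in control cells. Ctcf had 56 PETs in the knockout and 129 in control cells. Of the cohesin genes, Rad21 had 25 PETs in the knockout and 72 in control cells, Smc1a had 16 in the knockout and 43 in control cells, Smc3 had 24 in the knockout and 70 in control cells, and Stag2 had 2 in the knockout and 12 in control cells. Genes of this list lay at a partner of a member in 2 cases in the knockout, Ash2l and Ctcf, and in 6 cases in control cells, which were these and Rbbp5, Setd1a, Sp1 and Wdr5. Of all 12817 genes, 2.04% lay at such a partner in the knockout and 5.70% in control cells. These shares include genes with few PETs, since 8973 of the 12817 had at least 10 PETs, where 27 of the 28 did. The list and all genes are thus not like for like, and a difference between them was not tested.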

How the data were processed

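RNA polymerase II ChIA-PET pairs of 1 merged library per condition were used. Per the submitters' processing notes, reads were processed with cutadapt, Bowtie 1.1.1 and MACS 1.4.2 on mm9. The study's methods state that PETs on the same chromosome under 4 kb were removed. The values deposited by the authors are raw PET counts per pair and per anchor, a p-value per pair with its adjusted form, and a score for distance that carries a sign. Anchor starts are 0-based in the files and were made 1-based.

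Each pair counted once for every GENCODE vM1 protein-coding gene less than 1 kb from either end. Ratios had exact conditional binomial intervals, densities exact Poisson intervals and shares exact binomial (Clopper-Pearson) intervals at 95%. Genes were tested with a two-sided exact binomial test against the library ratio, adjusted over all genes with PETs (Python 3.11.15, scipy 1.17.1, pysam 0.24.0). The test was tested on simulated binomial counts, with changes planted only in genes with many PETs. Those counts had no spread between replicates and no error of scaling, so the simulation cannot speak to either, nor to members with few PETs. Members and gene lists were chosen with earlier results of these data known. Named were all members, partners with at least 2 PETs or found in both libraries, otherwise the nearest, genes sharing an anchor, other THAP genes and listed genes with at least 10 PETs. The core motif search, its strict form and the search for split anchors were added after values were seen. The nearest control partner of Hcfc1 is not reported here. Alternatives changed the gene window, pair class, threshold, unit and scaling.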

Additional observations from a re-analysis of the deposited data

How the results depend on the processing

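No paired analysis was possible because the files hold 1 merged library per condition, and for the same reason no replicate could be left out. The 6 interchromosomal shares of the members recomputed stayed within the counting interval. The ratio for all members, 36.6% of control, became 53.1% with pairs on the same chromosome only (26 PETs in the knockout and 49 in control cells) and 55.6% with at least 2 PETs per pair (10 in the knockout and 18 in control cells), and stayed within its interval in the other 7 alternatives. Members called numbered 1 when scaled by intrachromosomal PETs, 4 when scaled by PETs over 5 kb and 5 with no scaling, and 0 otherwise. Members with fewer PETs after scaling numbered 2 with pairs on the same chromosome, 7 when scaled by PETs over 5 kb and 7 with no scaling. Genes called lower numbered 17 with pairs on the same chromosome, 191 with the authors' adjusted p under 0.05, 149 with at least 2 PETs, 88 with each pair counted once, 841 when scaled by intrachromosomal PETs, 4120 when scaled by PETs over 5 kb and 5465 with no scaling. Genes called higher numbered 30 with pairs on the same chromosome, 46 with at least 2 PETs, 131 when scaled by PETs over 5 kb and 99 with no scaling. Control pairs of members found in the knockout were 3.16% with anchors extended by 5 kb, 8.51% with pairs on the same chromosome and 22.2% (2 of 9) with at least 2 PETs in both libraries.

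Single members crossed the level of equal scaled counts as follows, as percent of control after scaling. Thap11, at 101%, was at 52.7% with start sites, 92.3% with pairs on the same chromosome, 68.6% with at least 2 PETs, 85.7% when scaled by intrachromosomal PETs, 52.8% when scaled by PETs over 5 kb and 42.2% with no scaling. Hcfc1, at 92.0%, was at 113% with each pair counted once. Zfp143, at 73.5%, was at 102% with pairs on the same chromosome. Thap1, at 57.3%, was at 127% with pairs on the same chromosome and 206% with at least 2 PETs. Thap2, at 102%, was at 92.8% with pairs between chromosomes, 0% with at least 2 PETs, 87.1% when scaled by intrachromosomal PETs, 53.7% when scaled by PETs over 5 kb and 42.9% with no scaling. Thap7, at 124%, was at 64.9% when scaled by PETs over 5 kb and 51.9% with no scaling. Apart from Thap11 with the last 2 scalings and Thap2 with no scaling, none of these crossings was called. The cause was not tested, other than that scalings shift every gene alike and stricter pairs leave fewer PETs.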
